A study of Mus musculus with 9 samples.

Results

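The 9 genes described here encode the 2 chains of calprotectin, *S100a8* and *S100a9*, and 7 proteins stored in neutrophil granules, *Ngp*, *Camp*, *Ltf*, *Lcn2*, *Mpo*, *Elane* and *Prtn3*. They were taken by gene symbol, 9 of the 28998 genes in the table, and the set was chosen by its low levels in JHU083 cells against Control cells, so their values in that comparison describe the choice and are given with no test. RNA was measured by poly(A) RNA sequencing in 9 libraries of mouse macrophages, made from bone marrow monocytes with GM-CSF over 7 days and then given drug for 36 hours. There were 3 libraries of cells given JHU083, 3 of cells given WGFT17 and 3 Control libraries. All 3 groups were of C57 mice and of WT genotype. JHU083 is known as a prodrug of the glutamine antagonist DON, and WGFT17 is a code name of a compound the labels do not describe. Doses, and what Control cells received during the drug period, were not given in the sources used here, so an effect of a drug cannot be told apart from an effect of the time or handling that went with it. The labels do not say whether libraries of a group came from separate mice or cultures, so the spread behind each p-value is that of these libraries and may be technical.

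S100A8 and S100A9 pair to form calprotectin, which makes up much of the cytosolic protein of a neutrophil, is present in monocytes, binds calcium and zinc, and acts outside the cell as an alarm signal through TLR4. Granule proteins are made in the bone marrow while neutrophils mature: MPO, ELANE and PRTN3 at the promyelocyte stage for azurophil granules, and NGP, CAMP, LTF and LCN2 later, for specific granules. Macrophages make little of the azurophil proteins, whereas LCN2 is also made by macrophages and epithelia during inflammation.

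The calprotectin pair lay on chromosome 3 in GRCm38, with *S100a8* (ENSMUSG00000056054) at chr3:90668978-90670035 on the plus strand and *S100a9* (ENSMUSG00000056071) at chr3:90692632-90695721 on the minus strand. The 2 genes were 22596 bases apart, with 0 genes of the table between them. *Ngp* lay at chr9:110419747-110423012 on the plus strand and *Lcn2* at chr2:32384633-32387797 on the minus strand. *Prtn3* and *Elane*, neighbours on chromosome 10, were 3072 bases apart with 0 genes of the table between them. The promoters of the 4 members that were abundant enough to test are shown, because 3 of these 4 were lowest in WGFT17 cells and *Lcn2* was not. All 9 members matched an entry of the RefSeq promoter table (GRCm38.p6), which runs from 250 bases before to 50 bases after each start. Capitals mark TTNNGCAA, a core of the sites bound by C/EBP factors, searched on both strands, with matches of this motif allowed to overlap those of others. The windows were chr3:90668821-90669120 on the plus strand for *S100a8*, chr3:90695672-90695971 on the minus strand for *S100a9*, chr9:110419558-110419857 on the plus strand for *Ngp* and chr2:32387690-32387989 on the minus strand for *Lcn2*.
S100a8: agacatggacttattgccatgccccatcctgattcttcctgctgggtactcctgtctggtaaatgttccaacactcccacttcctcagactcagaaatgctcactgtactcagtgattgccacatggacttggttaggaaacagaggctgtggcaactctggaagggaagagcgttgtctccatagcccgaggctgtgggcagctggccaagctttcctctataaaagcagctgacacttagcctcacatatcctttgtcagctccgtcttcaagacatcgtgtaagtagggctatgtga
S100a9: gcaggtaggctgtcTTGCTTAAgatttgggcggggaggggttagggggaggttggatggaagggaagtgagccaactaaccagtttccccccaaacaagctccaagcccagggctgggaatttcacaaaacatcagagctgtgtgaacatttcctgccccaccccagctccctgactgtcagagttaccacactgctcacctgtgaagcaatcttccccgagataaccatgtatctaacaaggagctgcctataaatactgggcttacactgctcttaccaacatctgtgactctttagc
Ngp: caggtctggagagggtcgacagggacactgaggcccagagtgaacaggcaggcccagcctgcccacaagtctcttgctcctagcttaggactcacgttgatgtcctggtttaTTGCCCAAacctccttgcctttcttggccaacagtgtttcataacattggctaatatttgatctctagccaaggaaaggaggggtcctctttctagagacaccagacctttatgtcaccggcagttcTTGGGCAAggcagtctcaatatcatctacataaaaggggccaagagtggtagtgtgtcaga
Lcn2: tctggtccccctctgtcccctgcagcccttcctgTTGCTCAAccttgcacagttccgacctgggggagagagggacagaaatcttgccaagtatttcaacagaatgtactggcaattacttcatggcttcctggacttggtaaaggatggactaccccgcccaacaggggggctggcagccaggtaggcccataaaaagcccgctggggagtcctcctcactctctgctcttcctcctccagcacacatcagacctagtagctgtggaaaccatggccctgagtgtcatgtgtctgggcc
The motif was present in 4 of the 9 member promoters, those of *S100a9*, *Ngp*, *Ltf* and *Lcn2*, and in 10.8% of the 32851 promoters of the table. The *Ngp* window held 2 matches and the *S100a9* and *Lcn2* windows 1 each, while these letters were not in the *S100a8* window. GAGGAA, a core of PU.1 sites searched on both strands, was present in 6 of the 9 member promoters and in 28.3% of all promoters. TATAAA, also searched on both strands, was present in the *S100a8* and *S100a9* windows, 2 of the 9, and in 13.6% of all promoters. These matches are descriptions of the letters in each window.

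The libraries held 56624220 to 69112134 estimated counts, or about 14200000 to 17300000 read pairs. Several defining markers of neutrophils were at or near 0 in all 9 libraries, while other genes that neutrophils express were detected, and the macrophage markers were abundant. *Ly6g*, the defining surface marker of mouse neutrophils, was listed at 0 FPKM in 8 libraries and at 0.07 FPKM in JHU083 replicate 3. FPKM are fragment counts divided by transcript length and by library depth, and levels of different genes are compared on this scale alone. *Cxcr2*, the chemokine receptor of mature neutrophils, reached at most 0.18 FPKM, in Control replicate 2. *Retnlg* and *Cd177* each reached at most 0.15 FPKM in any library. *Mmp8*, the neutrophil collagenase, averaged 11.4 FPKM in JHU083, 7.69 FPKM in WGFT17 and 10.2 FPKM in Control. The summed level of 12 macrophage markers, all 12 of them tested, was 8519 to 8865 CPM in JHU083, 6664 to 7156 CPM in WGFT17 and 8610 to 8865 CPM in Control. *Lyz2*, the lysozyme gene of both macrophages and neutrophils, averaged 8995 FPKM in JHU083, 9660 FPKM in WGFT17 and 8013 FPKM in Control. In bulk RNA, fewer cells of a type and less RNA per cell cannot be told apart.

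The JHU083 libraries differed among themselves in transcripts of other tissues. A 20-gene heart list summed to 291, 6.81 and 436 CPM in JHU083 replicates 1 to 3, 18.0 to 20.5 CPM in WGFT17 and 369 to 418 CPM in Control. On this list JHU083 replicate 2 was low, replicate 1 lay between and replicate 3 was above the Control range. A 14-gene retina list, of which 13 were in the table, summed to 6.19, 5.99 and 43.1 CPM in JHU083 replicates 1 to 3, 4.39 to 5.08 CPM in WGFT17 and 38.1 to 46.2 CPM in Control, so replicate 3 alone of the JHU083 libraries was at the Control level. A 25-gene liver list summed to 1681, 1395 and 1996 CPM in JHU083 replicates 1 to 3, 957 to 1504 CPM in WGFT17 and 2898 to 3038 CPM in Control. The summed level of the 9 granule and calprotectin genes was 25.1, 19.5 and 29.0 CPM in JHU083 replicates 1 to 3, 20.5, 20.2 and 17.5 CPM in WGFT17, and 71.8, 78.1 and 73.4 CPM in Control. For this sum, as for the heart and liver lists, JHU083 replicate 3 was highest and replicate 2 lowest, and all 3 lay below every Control library. *Lcn2* alone gave 12.6, 7.05 and 14.7 CPM of the sum in JHU083 replicates 1 to 3. Taken singly, *Ngp* and *Lcn2* had this order of libraries and the other members did not. The sum of the liver list, like that of the members, was lower in all drug libraries than in any Control library. This does not hold for each gene, since *Lcn2* overlapped between WGFT17 and Control. Of the 25 liver genes, 17 fell and 8 did not pass in WGFT17 against Control, where 30.0% of all tested genes were called lower. The part of liver transcripts in the members' values was not tested. Each JHU083 mean includes replicate 3 unless it is said to be left out, and whether that library's label holds was not tested.

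*S100a8* and *S100a9*, the chains of calprotectin, were lower in both drug groups, and *S100a9* was the more reduced of the pair in WGFT17 cells. *S100a8* had 1.41, 1.69 and 2.80 FPKM in JHU083 cells, 0.53, 1.57 and 0.93 FPKM in WGFT17 cells, and 7.17, 8.07 and 8.11 FPKM in Control cells. Every drug library was below every Control library, and the 2 drug groups overlapped, since WGFT17 replicate 2 was above JHU083 replicate 1. *S100a9* had 2.91, 3.31 and 3.71 FPKM in JHU083 cells, 0.50, 0.46 and 0.21 FPKM in WGFT17 cells, and 13.06, 20.75 and 17.70 FPKM in Control cells. Here the 3 groups were fully separated, with Control highest, JHU083 between and WGFT17 lowest. Mean *S100a8* was 25.3% of the Control mean in JHU083 cells and 12.98% in WGFT17 cells. Mean *S100a9* was 19.3% of the Control mean in JHU083 cells and 2.27% in WGFT17 cells.

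*Ngp*, the gene of neutrophilic granule protein, a cathelin-related protein of specific granules, showed the deepest reduction in WGFT17 cells of the 4 tested members. It had 3.88, 2.84 and 3.98 FPKM in JHU083 cells, 0.26, 0.18 and 0.12 FPKM in WGFT17 cells, and 13.47, 14.16 and 14.06 FPKM in Control cells. The 3 groups did not overlap, and the Control libraries lay close together (13.9 ± 0.373 FPKM, SD, n = 3). Mean *Ngp* was 25.7% of the Control mean in JHU083 cells and 1.34% in WGFT17 cells.

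*Lcn2*, the gene of lipocalin 2, which binds bacterial iron carriers, took another order: Control highest, then WGFT17, then JHU083. It had 4.48, 2.50 and 4.97 FPKM in JHU083 cells, 6.79, 6.46 and 5.88 FPKM in WGFT17 cells, and 8.12, 7.92 and 6.76 FPKM in Control cells. All JHU083 libraries were below all others, whereas WGFT17 and Control overlapped, with WGFT17 replicate 1 just above Control replicate 3. Mean *Lcn2* was 52.4% of the Control mean in JHU083 cells and 83.9% in WGFT17 cells. It was the most abundant member in WGFT17 cells (6.38 ± 0.461 FPKM, SD, n = 3), above *S100a8* (1.01 ± 0.525 FPKM, SD, n = 3).

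*Camp* and *Ltf*, the other specific granule genes, were rare in all drug libraries. *Camp*, the precursor of the antimicrobial peptide cathelicidin, had 0.31, 0.48 and 0.29 FPKM in JHU083 cells, 0.20, 0.07 and 0.00 FPKM in WGFT17 cells, and 1.10, 0.55 and 1.13 FPKM in Control cells. Control replicate 2 was low and came close to JHU083 replicate 2, though the groups did not overlap. *Ltf*, the gene of the iron-binding protein lactoferrin, had 0.23, 0.49 and 0.22 FPKM in JHU083 cells, was listed at 0 in all 3 WGFT17 libraries, and had 1.50, 1.44 and 1.75 FPKM in Control cells. Thus *Ltf* was undetected at this depth in WGFT17 cells while each Control library held it clearly.

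The azurophil members were rare in every group and lowest in WGFT17 cells. *Mpo*, the gene of myeloperoxidase, which makes hypochlorous acid, had 0.71, 0.71 and 0.73 FPKM in JHU083 cells, 0.00, 0.01 and 0.00 FPKM in WGFT17 cells, and 1.63, 2.09 and 1.55 FPKM in Control cells. *Elane*, the gene of neutrophil elastase, had 0.25, 0.18 and 0.12 FPKM in JHU083 cells, was listed at 0 in all 3 WGFT17 libraries, and had 0.58, 0.55 and 0.78 FPKM in Control cells. *Prtn3*, the gene of the serine protease proteinase 3, had 0.38, 0.32 and 0.21 FPKM in JHU083 cells, 0.14, 0.16 and 0.05 FPKM in WGFT17 cells, and 0.82, 1.01 and 1.05 FPKM in Control cells. For each of the 3 genes the groups were fully separated in the same order, Control above JHU083 above WGFT17.

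Across the 9 members, 8 had group means in the order Control, JHU083, WGFT17, and *Lcn2* was the exception. All JHU083 libraries were below all Control libraries for 9 of 9 members, where 12.4% of the 11798 tested genes showed this pattern, and nothing is read from that count, since this contrast chose the members. All WGFT17 libraries were below all Control libraries for 8 of 9 members, against 28.2% of tested genes. All WGFT17 libraries were below all JHU083 libraries for 7 of 9 members, against 25.9% of tested genes, and above them for 1, *Lcn2*, against 27.4% of tested genes. Only 4 of the 9 members were among the tested genes, so the counts and the shares cover unlike sets of genes. Both WGFT17 contrasts share libraries with the contrast that chose the members, and nothing is read from their counts either.

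**Figure D1:**
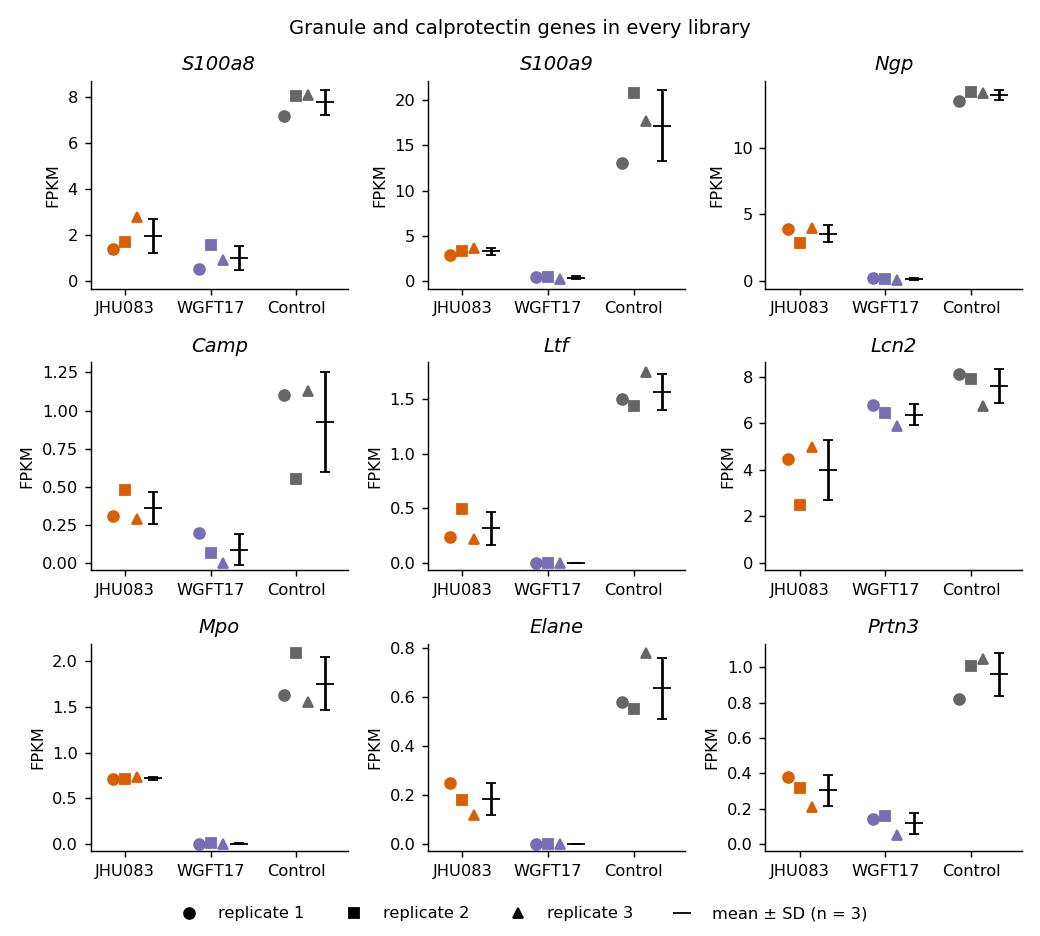
FPKM of each of the 9 genes (linear axes from 0, 1 scale per gene) in the 9 libraries, with JHU083, WGFT17 and Control side by side. Circles, squares and triangles are replicates 1, 2 and 3, and the crossed bar is the mean ± SD (n = 3). Control was highest throughout, and WGFT17 was lowest for every gene except *Lcn2*, for which JHU083 was lowest (3.98 FPKM on average).

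**Figure D2:**
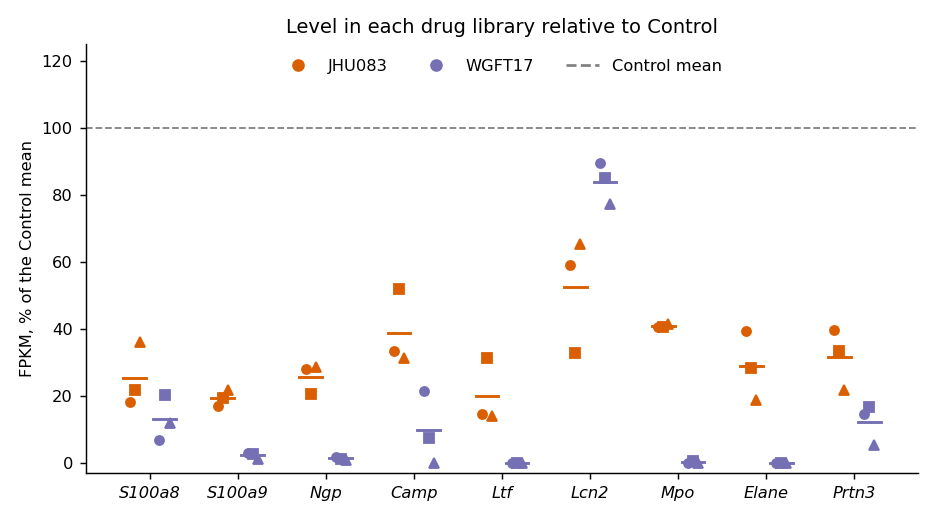
FPKM of each gene in each JHU083 and WGFT17 library, as a percentage of the Control mean (linear axis). Circles, squares and triangles are replicates 1, 2 and 3, short lines are group means and the dashed line is the Control mean. *Lcn2* in WGFT17 (83.9%) stood well above the other WGFT17 means, the next being *S100a8* at 12.98%.

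Of the 9 members, 4 had a mean of at least 1 FPKM over the 9 libraries and were tested among 11798 genes: *S100a8*, *S100a9*, *Ngp* and *Lcn2*. Their means over the 6 drug libraries alone were 1.49, 1.85, 1.88 and 5.18 FPKM. In JHU083 against Control, the contrast used to choose the members, *S100a9* was 5.51-fold lower (log2 -2.46), *S100a8* 4.19-fold lower (log2 -2.07), *Ngp* 4.16-fold lower (log2 -2.06) and *Lcn2* 2.03-fold lower (log2 -1.02). Counted from the largest fall, these were at places 5, 9, 10 and 176 of 11798. Without JHU083 replicate 3 the log2 differences were -2.56 for *S100a9*, -2.41 for *S100a8*, -2.15 for *Ngp* and -1.22 for *Lcn2*, so each fall was as large without that library. In a fit with no minimum level, the log2 differences of the other members were -2.39 for *Ltf*, -1.90 for *Elane*, -1.72 for *Prtn3*, -1.43 for *Camp* and -1.39 for *Mpo*. Over all tested genes, 11.5% were called higher and 12.5% lower in JHU083 cells.

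WGFT17 against Control used the same Control libraries as the contrast that chose the members, so it is not independent of that choice. In this comparison 3 of the 4 tested members fell, and *Lcn2* did not pass, against 28.0% of all tested genes called higher and 30.0% called lower by edgeR's quasi-likelihood test with Benjamini-Hochberg adjustment. *Ngp* fell 77.3-fold in WGFT17 cells (log2 -6.27, SE 0.24, adjusted p = 2.66e-09). *S100a9* fell 46.2-fold (log2 -5.53, SE 0.31, adjusted p = 5.28e-08). *S100a8* fell 8.21-fold (log2 -3.04, SE 0.37, adjusted p = 3.68e-05). *S100a9* and *Ngp* averaged under 1 FPKM in WGFT17 cells and so entered the test through the other groups. These 3 calls held in every alternative run, but the size of the largest falls rests on few reads. *Ngp* had about 13 read pairs over the 3 WGFT17 libraries, or 1.33% of the Control level (95% exact interval 0.705% to 2.28%, counting error only). *S100a9* had about 11, or 2.12% of the Control level (1.05% to 3.82%). On the log2(FPKM + 1) scale, which understates the change of low genes, the differences were -3.65 for *Ngp* and -3.69 for *S100a9*. *Lcn2* had a log2 difference of -0.36 (SE 0.20, adjusted p = 0.143), which passed in 2 of 20 alternatives, with only WGFT17 and Control in the fit (adjusted p = 0.00561) and without JHU083 replicate 2 (adjusted p = 0.0101).

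The 5 rarer members could be tested only in the fit of all 28998 genes with no minimum level, an alternative in which 14.9% of genes were called lower in WGFT17 than in Control and 8 of the 9 members were among them. *Prtn3* had a log2 difference of -3.05 (edgeR adjusted p = 0.00032) and *Camp* of -3.42 (edgeR adjusted p = 0.0132). For genes with 0 counts in WGFT17 a fitted fold has no meaning, so bounds were computed against 3 read pairs per library. *Ltf* was at least 34.6-fold lower in WGFT17 than in Control, and *Elane* at least 4.09-fold lower. *Mpo* rested on about 1 read pair over the 3 WGFT17 libraries, against about 328 over the 3 Control libraries. Its level in WGFT17 was 0.287% of Control, with a 95% exact interval of 0.00725% to 1.61% that covers counting error only.

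WGFT17 against JHU083, a direct comparison of the drugs at the same labelled time, shared the JHU083 libraries with the contrast that chose the members. Doses were not given, so these values do not compare the compounds at matched doses. Of the 4 tested members, 3 were called lower in WGFT17 and *Lcn2* higher, against 24.4% of all tested genes called lower and 20.4% called higher. *Ngp* was 18.6-fold lower in WGFT17 cells (log2 -4.22, SE 0.23, edgeR adjusted p = 6.09e-08), and *S100a9* was 8.38-fold lower (log2 -3.07, SE 0.30, edgeR adjusted p = 7.36e-06). Both held in every alternative run. *S100a8* was at the threshold, with a log2 difference of -0.97 (SE 0.37, edgeR adjusted p = 0.0499). It passed in 7 of 19 alternatives, and without JHU083 replicate 3, the highest of its group, the log2 difference was -0.63 (edgeR adjusted p = 0.165). *Lcn2* was 1.58-fold higher in WGFT17 cells (log2 0.66, SE 0.20, edgeR adjusted p = 0.0193). It passed in 18 of 20 alternatives, with adjusted p = 0.0602 by edgeR without WGFT17 replicate 1 and 0.0516 without WGFT17 replicate 2.

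With no minimum level, 11.7% of genes were called lower and 8.73% higher in WGFT17 than in JHU083. *Prtn3* had a log2 difference of -1.33 (edgeR adjusted p = 0.0452), which passed in 7 of 18 alternatives. *Camp* had a log2 difference of -1.99 (edgeR adjusted p = 0.15). *Ltf* was at least 6.73-fold lower in WGFT17 than in JHU083 and *Elane* at least 1.12-fold lower. *Mpo*, with about 1 read pair in WGFT17 and 121 in JHU083, was at 0.737% of the JHU083 level (95% exact interval 0.0185% to 4.18%, counting error only).

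Because *S100a8* and *S100a9* differed in how far they were reduced, the balance of the 2 transcripts differed too. The ratio of *S100a8* to *S100a9* FPKM was 0.485, 0.511 and 0.755 in JHU083 cells, 1.06, 3.41 and 4.43 in WGFT17 cells, and 0.549, 0.389 and 0.458 in Control cells. *S100a8* was the more abundant transcript in all WGFT17 libraries and the less abundant in every other library. The mean log2 ratio was higher by 2.45 in WGFT17 than in Control and by 2.14 in WGFT17 than in JHU083 (two-sided exact permutation p = 0.1 for each, the smallest that 3 libraries against 3 allow). In WGFT17 the ratio rests on few reads, about 38 read pairs of *S100a8* and 11 of *S100a9* over the 3 libraries.

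**Figure D3:**
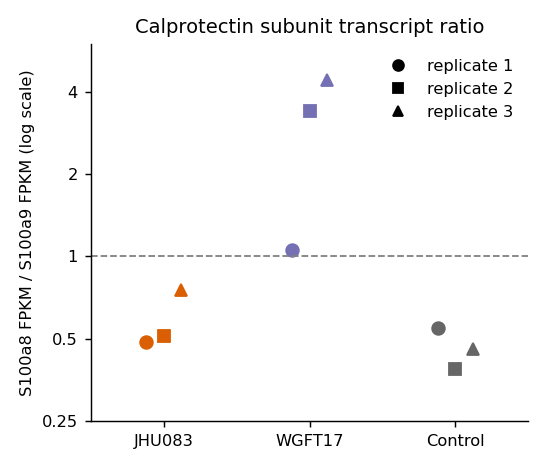
Ratio of *S100a8* to *S100a9* FPKM in each library (log axis), with JHU083, WGFT17 and Control side by side. Circles, squares and triangles are replicates 1, 2 and 3, and the dashed line marks equal levels. The WGFT17 libraries (1.06 to 4.43) lay above the JHU083 and Control libraries, of which the highest was 0.755.

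The other S100 genes, calcium-binding proteins of the same family, were lower as well. Of 14 listed, 7 were tested, and all 7 fell in WGFT17 against Control, where 30.0% of all tested genes were called lower (median log2 -1.80, against 0.00 over all tested genes). The same 7 were lower in WGFT17 against JHU083, where the share was 24.4% (median log2 -1.08, against 0.01). In JHU083 against Control, where it was 12.5%, 6 of the 7 fell and 1 did not pass (median log2 -0.49, against 0.00). *S100a4*, which binds non-muscle myosin, averaged 206 FPKM in JHU083, 57.8 FPKM in WGFT17 and 301 FPKM in Control. It fell 5.61-fold in WGFT17 against Control (log2 -2.49, edgeR adjusted p = 2.6e-09). *S100a11*, the most abundant of the list, averaged 526 FPKM in JHU083, 221 FPKM in WGFT17 and 741 FPKM in Control, and fell by 1.85 on the log2 scale in WGFT17 against Control. *S100a16* fell by 1.99 and *S100a6* by 1.80 on that scale. Each of these differences was smaller than those of *S100a8* and *S100a9* in the same comparison, and the difference between genes was not tested.

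**Figure D4:**
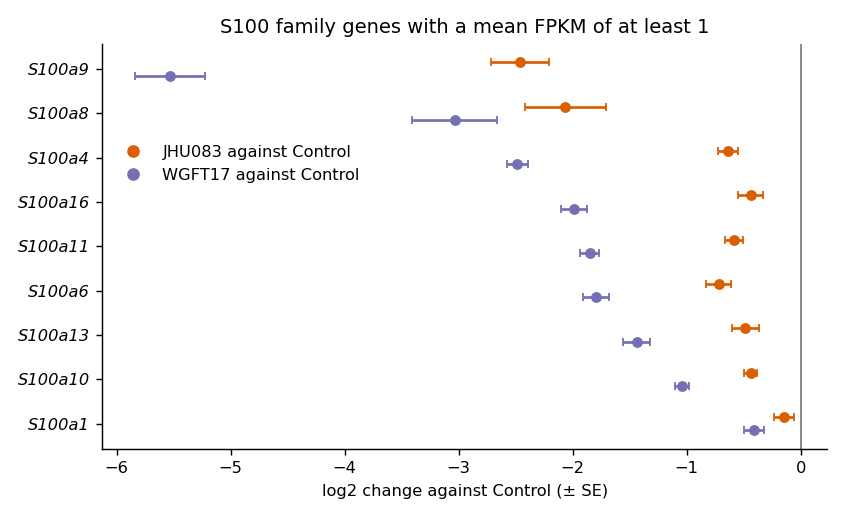
Log2 difference of each tested S100 gene in JHU083 against Control and in WGFT17 against Control, on a linear axis, with JHU083 above WGFT17 for each gene and bars of 1 SE of the edgeR fit. *S100a9* (-5.53) and *S100a8* (-3.04) were the lowest in WGFT17, followed by *S100a4* (-2.49).

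Other neutrophil genes moved in both directions. Of 17 further specific and gelatinase granule genes, 13 were tested, of which 4 rose, 5 fell and 4 did not pass in WGFT17 against Control, counts near the 28.0% higher and 30.0% lower of all tested genes. In JHU083 against Control 2 rose and 3 fell, against 11.5% and 12.5% of all tested genes, or 1351 and 1480 genes. Without JHU083 replicate 3 these counts were 4 and 2, and those over all tested genes were 1855 and 1876. *Chil3*, a chitinase-like lectin made by neutrophils and by macrophages, had 1.76, 2.05 and 3.53 FPKM in JHU083, 0.25, 0.37 and 0.26 FPKM in WGFT17, and 6.85, 8.03 and 7.42 FPKM in Control. Its groups did not overlap, and it fell 26.7-fold in WGFT17 against Control (log2 -4.74, edgeR adjusted p = 1.12e-07). *Mmp9*, gelatinase B, averaged 32.2 FPKM in JHU083, 7.36 FPKM in WGFT17 and 30.5 FPKM in Control, and fell by 2.16 on the log2 scale in WGFT17 against Control. It had a log2 difference of -0.02 in JHU083 against Control (edgeR adjusted p = 0.936) and of -2.14 in WGFT17 against JHU083 (edgeR adjusted p = 2.89e-07). *Hp*, haptoglobin, which liver also makes in large amounts, averaged 32.6 FPKM in JHU083, 19.5 FPKM in WGFT17 and 68.7 FPKM in Control. The sum of the liver list was lower in both drug groups too, and the part of liver transcripts in the *Hp* values was not tested. *Lyz2* did not pass in WGFT17 against Control (log2 0.16, edgeR adjusted p = 0.0778), *Cyba*, a subunit of the NADPH oxidase, rose by 0.26 on the log2 scale, and *Adam8*, a surface metalloprotease, rose by 0.78.

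Of 12 further genes of azurophil granules or of the precursor stage, 4 were tested, all of which macrophages also express. In WGFT17 against Control 1 rose and 2 fell, against 28.0% and 30.0% of all tested genes. *Cd63*, a granule membrane tetraspanin, rose by 0.40 on the log2 scale, and *Lyz1* and *Srgn* had log2 differences of -0.76 and -0.37. *Ctsc*, the protease that activates elastase, had a log2 difference of 0.06 (edgeR adjusted p = 0.366). The other genes of this list in the table were too rare to test. *Ctsg*, the protease cathepsin G, had 0.15, 0.00 and 0.16 FPKM in JHU083, 0.00, 0.16 and 0.12 FPKM in WGFT17, and 0.74, 0.65 and 0.25 FPKM in Control. *Ms4a3*, a marker of granulocyte and monocyte precursors, had 0.04, 0.00 and 0.11 FPKM in JHU083, was listed at 0 in all WGFT17 libraries, and had 0.39, 0.24 and 0.23 FPKM in Control. Of the other untested genes of this list in the table, *Fcnb* and *Cebpe* also had their highest mean in Control (0.187 and 0.29 FPKM), whereas *Nkg7* averaged 0.217 FPKM in JHU083, 0.367 FPKM in WGFT17 and 0.11 FPKM in Control. *Gfi1* averaged 0.10 FPKM in JHU083, 0.103 FPKM in WGFT17 and 0.0667 FPKM in Control, and *Prss57* was at most 0.01 FPKM on average in any group.

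Of 22 genes of mature neutrophils, 18 were in the table and 8 were tested. In WGFT17 against Control 5 rose and 2 fell (median log2 0.71), against 28.0% and 30.0% of all tested genes. In JHU083 against Control 0 rose and 2 fell, against 11.5% and 12.5% of all tested genes, or 1351 and 1480 genes. Without JHU083 replicate 3 these counts were 1 and 3, and those over all tested genes were 1855 and 1876. *Clec4e*, the receptor Mincle, averaged 1.63 FPKM in JHU083, 6.61 FPKM in WGFT17 and 1.94 FPKM in Control, and rose 3.15-fold in WGFT17 against Control (log2 1.66, edgeR adjusted p = 3.38e-06). *Clec4d*, its partner receptor, rose by 0.60 on the log2 scale. *Csf3r*, the receptor for the neutrophil growth factor G-CSF, averaged 19.8 FPKM in JHU083, 17.7 FPKM in WGFT17 and 17.3 FPKM in Control, and did not pass in either comparison with Control (edgeR adjusted p = 0.337 for JHU083 and 0.35 for WGFT17). The 2 that fell in both drug groups were *Lrg1*, a secreted glycoprotein of neutrophil granules and liver, with log2 differences of -1.37 in JHU083 and -1.39 in WGFT17 against Control, and *Wfdc21*, with -1.74 and -1.77. Most of these receptors are also expressed by macrophages.

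Among 16 genes of binding partners, receptors and inhibitors of the members, 12 were tested, of which 5 rose and 5 fell in WGFT17 against Control, where 28.0% of all tested genes were called higher and 30.0% lower. In JHU083 against Control 2 rose and 2 fell, where the shares of all tested genes were 11.5% and 12.5%, or 1351 and 1480 genes. Without JHU083 replicate 3 the counts were 3 and 3, and those over all tested genes were 1855 and 1876. *Serpina3g*, an intracellular inhibitor of cysteine cathepsins, averaged 3.13 FPKM in JHU083, 0.20 FPKM in WGFT17 and 3.25 FPKM in Control, and fell by 4.11 on the log2 scale in WGFT17 against Control. *Cst3*, cystatin C, whose fold is shared by cathelicidin and NGP precursors, fell by 0.96, and *Cp*, ceruloplasmin, a partner of both lactoferrin and myeloperoxidase, fell by 0.87. *Cstb*, cystatin B, had a log2 difference of -0.17 in WGFT17 against Control (edgeR adjusted p = 0.125), and *Lrp1*, an endocytic receptor, rose by 0.31.

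Of 13 transcription factors that control granule genes or inflammatory induction, 10 were tested. In WGFT17 against Control 3 rose and 2 fell, near the shares of all tested genes (28.0% and 30.0%). In JHU083 against Control 1 rose, *Cebpb*, against 11.5% of all tested genes, or 1351 genes. Without JHU083 replicate 3 it was 3 that rose, and 1855 over all tested genes. *Cebpb*, a C/EBP factor of macrophages and of emergency granulopoiesis, had 38.81, 36.25 and 1.47 FPKM in JHU083, 65.87, 67.24 and 66.27 FPKM in WGFT17, and 3.69, 3.63 and 4.04 FPKM in Control. JHU083 replicate 3 was below every Control library, so the JHU083 group was split for this gene. In WGFT17 against Control *Cebpb* rose by 4.02 on the log2 scale (edgeR adjusted p = 0.00116), *Cebpa* by 0.80 and *Spi1*, the gene of PU.1, by 0.37. *Rela*, a subunit of NF-κB, had a log2 difference of 0.05 in that comparison (edgeR adjusted p = 0.567).

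Some markers of other marrow and blood cells were also lower in WGFT17 cells, where 30.0% of all tested genes were called lower against Control. All 6 tested monocyte markers, of 8 listed, fell in WGFT17 against Control (median log2 -1.89), and 5 of 6 fell in JHU083 against Control, where 12.5% of all tested genes did. The 8 listed monocyte markers summed to 5973 to 6483 CPM in JHU083, 4827 to 5190 CPM in WGFT17 and 7796 to 8454 CPM in Control. *Fn1*, by far the most abundant of them, averaged 456 FPKM in JHU083, 385 FPKM in WGFT17 and 580 FPKM in Control. Each other marker of this list averaged at most 68.7 FPKM in any group. *Hp*, which liver also makes, is among those that fell and was also counted with the granule genes above. Of 11 listed dendritic cell markers 4 were tested, *H2-Aa*, *H2-Ab1*, *Cd74* and *Itgax*, and these 4 fell in WGFT17 against Control (median log2 -1.90). Among the untested ones *Zbtb46* averaged 0.193 FPKM in WGFT17 and 0.207 FPKM in Control, and *Ccr7* 0.693 FPKM in WGFT17 and 0.0733 FPKM in Control. *Cd209a* averaged 0.02 FPKM in WGFT17 and 0.227 FPKM in Control, and *Xcr1* 0.0133 and 0.0933 FPKM in the same groups. *Flt3*, *Dpp4* and *Clec9a* averaged at most 0.147 FPKM in either group. The dendritic list summed to 398 to 448 CPM in JHU083, 132 to 156 CPM in WGFT17 and 409 to 587 CPM in Control. The 9 mast cell, basophil and eosinophil markers in the table summed to 12.6 to 13.4 CPM in JHU083, 1.98 to 2.87 CPM in WGFT17 and 15.3 to 20.2 CPM in Control. The 11 B cell markers summed to 30.7 to 37.8 CPM in JHU083, 15.0 to 15.7 CPM in WGFT17 and 56.4 to 62.4 CPM in Control. *Mcpt8*, a basophil protease, had 4.11, 3.21 and 3.63 FPKM in JHU083, 0.50, 0.40 and 0.21 FPKM in WGFT17, and 10.61, 8.30 and 9.34 FPKM in Control, the same order of groups as the calprotectin genes. The other tested genes of the mast cell, basophil and eosinophil list had their highest mean in JHU083. *Siglecf* averaged 2.12 FPKM in JHU083, 0.333 FPKM in WGFT17 and 1.66 FPKM in Control. *Ear2* averaged 1.64, 1.24 and 1.46 FPKM in the same groups. The untested *Prss34* and *Prg2* averaged 0.593 and 0.487 FPKM in JHU083, 0.0167 and 0 in WGFT17, and 0.43 and 0.433 in Control. Of 9 tested stromal and endothelial markers, 8 fell and 1 rose in WGFT17 against Control, and the 11 in the table summed to 8569 to 9783 CPM in JHU083, 2425 to 2559 CPM in WGFT17 and 12827 to 13733 CPM in Control. The T and NK cell list summed to 52.2 to 57.4 CPM in JHU083, 31.6 to 34.5 CPM in WGFT17 and 55.7 to 65.4 CPM in Control. Its most abundant and 1 tested gene was *Cd4*, at 11.9 FPKM in JHU083, 6.68 FPKM in WGFT17 and 12.7 FPKM in Control. *Cd3e*, a subunit of the T cell receptor complex, was untested and had 0.06, 0.10 and 0.05 FPKM in JHU083, 0.09, 0.00 and 0.33 FPKM in WGFT17, and 0.06, 0.01 and 0.02 FPKM in Control. *Cd8a*, also untested, averaged 0.12 FPKM in JHU083, 0.40 FPKM in WGFT17 and 0.0367 FPKM in Control. The megakaryocyte list summed to 248 to 257 CPM in JHU083, 161 to 175 CPM in WGFT17 and 232 to 261 CPM in Control. Of 4 tested erythroid markers, by edgeR, 0 passed in WGFT17 against Control, with 0 at an unadjusted p under 0.05 and 0 by DESeq2. The part of these cell types in the values of the 9 genes was not tested.

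The genes most alike to 3 members across the 9 libraries were taken by Pearson's r of log2(FPKM + 1), among tested protein-coding genes outside the 9. Genes with provisional, repeated or mitochondrial-genome symbols were left out. These correlations describe 9 points that share 3 groups, and they carry no test. For *S100a9* they were *Col5a3* (r = 0.993), *Cotl1* (0.993), *Atxn10* (0.991), *Ddost* (0.99) and *Atpif1* (0.989). For *Ngp* they were *Cotl1* (r = 0.998), *Krt19* (0.995), *Ppib* (0.994), *Il1rl1* (0.993) and *Mcpt8* (0.993). For *Lcn2* they were others, *Ndufa6* (r = 0.97), *Mt1* (0.953), *Lyrm4* (0.939), *Fads3* (0.913) and *Mak16* (0.91). Among the members themselves *S100a9* had an r of 0.988 with *Ngp* and 0.95 with *S100a8*, but 0.277 with *Lcn2*.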

How the data were processed

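RNA was measured in 9 libraries of 3 groups, from stranded libraries read as pairs (150 bases). Per the submitters' processing notes, the build was mm9 and the tools included StringTie 2.1.6, HISAT2 2.2.1 and cutadapt 1.9, along with edgeR and DESeq2, with no roles stated. The deposited table gives, per its header, an expected count (here estimated count) and an FPKM value, both made by the authors, for 28998 genes. Estimated counts were whole numbers, so none was rounded. Their pattern is that of coverage-derived values, about 4 per read pair, and floors of 3 read pairs (12 estimated counts) use this. Of 28926 identifiers matched to GENCODE M21 (GRCm38), 25194 (87.1%) had the same chromosome, start and end, so positions are in GRCm38. *Lcn2* was not among them, and its position is the table's.

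Genes with a mean of at least 1 FPKM (11798) were tested with edgeR 4.0.16 quasi-likelihood under R 4.3.3, with TMM factors, all 9 libraries in 1 fit, and Benjamini-Hochberg adjustment at 0.05, after the procedure was tested on simulated data. Means and SDs are of deposited FPKM, marker sums are in CPM, counts scaled to the library total, and SEs are of the fit. Alternatives were DESeq2 1.42.0, limma 3.58.1 on log2(FPKM + 1) or log2(FPKM + 0.1), other scaling, filters, group subsets, a replicate block, and each library left out. Those for members under the minimum were added after seeing the data. The members and gene lists were chosen with earlier results of these data known.

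Genes named are all members. From each neutrophil, S100, partner and regulator list they are the 3 most abundant tested genes and the 3 with the largest change in WGFT17 against Control. For the likeness to *S100a9*, *Ngp* and *Lcn2* they are the 5 protein-coding genes with the highest r, under the limits given there. *Ly6g*, *Cxcr2*, *Retnlg*, *Cd177*, *Mmp8* and the untested azurophil and precursor genes were named after their values were seen. The same holds for *Fn1*, for the dendritic and T cell genes, and for the mast cell, basophil and eosinophil genes other than *Mcpt8*.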

Additional observations from a re-analysis of the deposited data

How the results depend on the processing

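The falls of *Ngp*, *S100a9* and *S100a8* in WGFT17 against Control, and of *Ngp* and *S100a9* in WGFT17 against JHU083, kept their direction and their call in each alternative run, and 0 member results reversed. Genes changed in JHU083 against Control numbered 2831, and 1534 to 3731 when 1 library was left out, the lowest without Control replicate 2, with 1568 without Control replicate 3. Genes changed in WGFT17 against Control numbered 6837, and 4151 with a mean FPKM of at least 5; in WGFT17 against JHU083 they numbered 5277 and 3305. With no minimum, more members were tested, and those called lower numbered 8 in place of 3 in WGFT17 against Control. The share of all genes called lower there was 14.9% in place of 30.0%. In WGFT17 against JHU083 the members called lower numbered 6 in place of 3, where the share of all genes was 11.7% in place of 24.4%. *S100a8* lost its call there (edgeR adjusted p = 0.127). Members called higher in WGFT17 against JHU083 ranged over 0 to 1 when 1 library was left out, 0 without WGFT17 replicate 1 or 2; the cause was not tested. Of changed genes, 47.7% were higher in JHU083 against Control, 58.7% by library totals alone and 72.1% by limma on log2(FPKM + 1), and 48.3% were higher in WGFT17 against Control, 61.0% by that limma fit. The limma fit of log2(FPKM + 0.1) moved the median of all genes to 0.11 in WGFT17 against Control.

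Deviations of same-numbered libraries from their group means correlated at -0.0338 to 0.161 over 9 pairs, 1 of them above 0.1. Whether replicate numbers pair the libraries is not settled by these correlations. With the replicate block 2330 genes changed in JHU083 against Control, 6530 in WGFT17 against Control and 4907 in WGFT17 against JHU083. Depth limits the WGFT17 values of *Ngp* and *S100a9*, which rest on about 13 and 11 read pairs over 3 libraries, and of the rarer members, which rest on 0 to 12.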
